A study of Mus musculus with 4 samples.

Results

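Tm4sf4, Inpp5j, Mcub, Cst6 and Csta2 are 5 genes that gave a high signal in Dclk1+ cells of the mouse small intestine. They are not in the list of 20 tuft cell genes used here, and longer tuft cell lists were not checked for them. They are 5 of the 16390 named genes on the array, and of the 13467 genes that passed the background limit on 1 array or more. The members were chosen for that signal on these same arrays, so their differences between the sorted cells are given as descriptions, and nothing is tested with them. Each has 1 probe, and all 5 probes were above background (the mean of an array's blank spots plus 2 SD) on all 4 arrays.

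The study sorted cells from 4 sources and hybridised 1 Cy5-labelled array for each. Dclk1+ tumor cells were pooled from the intestinal tumors of 7 mice of genotype Dclk1CreERT2/+; ApcMin/+ aged more than 16 weeks, and Dclk1- tumor cells came from 1 mouse of that genotype aged 17 weeks. Dclk1+ normal cells were pooled from the normal small intestine of 2 Dclk1CreERT2/+ mice, and Dclk1- normal cells came from 1 such mouse, all aged 26 weeks. All mice were male, and all carried the CreERT2 allele at Dclk1, so no sample came from mice without it. The tumor mice also carried ApcMin, a truncating allele of the Apc tumor suppressor. The labels describe a sort of GFP-expressing cells for Dclk1+ tumor only, and they state no gate for the other 3. Tumor and normal samples differ in age and in ApcMin genotype as well as in tissue, and these cannot be told apart. Dclk1+ samples were pools of 7 and 2 mice and each Dclk1- sample came from 1 mouse, so pooling and Dclk1 status cannot be told apart.

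Tuft cells are rare chemosensory cells of the intestinal epithelium that are marked by the kinase Dclk1. They sense signals from the gut lumen through G protein, phospholipase C and calcium steps that open the channel Trpm5, and they release the cytokine Il25 and eicosanoids. The 5 genes have other known roles. Tm4sf4 encodes a membrane protein of the L6 family, which is related in shape to the tetraspanins, and Inpp5j encodes a phosphatase that removes the 5-phosphate from inositol phosphates and phosphoinositides. Mcub encodes a pore subunit of the mitochondrial calcium uniporter that lowers calcium uptake, and Cst6 and Csta2 encode inhibitors of cysteine proteases, a secreted cystatin and an intracellular stefin.

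The labels were first set against their defining genes. Levels here are the normalised intensities of the authors' deposited table, which are linear in the brightness of the spot. Levels of single genes are compared only within a probe. A sum over a list adds different probes, so it mostly follows the brightest of them. An empty value entered a sum at the lowest listed level of its array. Dclk1 read 61.8 in Dclk1+ and 9.5 in Dclk1- tumor cells, and 735.6 in Dclk1+ and 179.8 in Dclk1- normal cells. Both Dclk1+ arrays were above the Dclk1- array of their tissue, and Dclk1- normal was above Dclk1+ tumor. Over the 18 genes of a tuft cell list that have a probe, the summed level was 23790 in Dclk1+ and 485.0 in Dclk1- tumor cells, and 91660 in Dclk1+ and 447.6 in Dclk1- normal cells. Between 63.3 and 70.9% of the 23473 probes were above background on an array.

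The sequence before the start of the gene is shown for Tm4sf4, Mcub and Csta2, because these genes were bright in the same sorted cells. Each line gives 250 bases upstream of the gene start, 5′ to 3′ on the gene's strand, from RefSeq on GRCm38.p6, and 3 of the 5 genes matched. The capitals mark CCAAT, the letters of the CCAAT box, or ATTGG, the same letters on the other strand. The windows are chr3:57425160-57425409 on the + strand for Tm4sf4, chr3:129970207-129970456 on the - strand for Mcub and chr16:36221312-36221561 on the + strand for Csta2.
Tm4sf4: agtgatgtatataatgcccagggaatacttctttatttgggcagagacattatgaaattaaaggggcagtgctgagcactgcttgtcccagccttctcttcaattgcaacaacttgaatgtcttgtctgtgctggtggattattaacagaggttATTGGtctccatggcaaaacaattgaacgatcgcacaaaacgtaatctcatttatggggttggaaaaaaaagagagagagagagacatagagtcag
Mcub: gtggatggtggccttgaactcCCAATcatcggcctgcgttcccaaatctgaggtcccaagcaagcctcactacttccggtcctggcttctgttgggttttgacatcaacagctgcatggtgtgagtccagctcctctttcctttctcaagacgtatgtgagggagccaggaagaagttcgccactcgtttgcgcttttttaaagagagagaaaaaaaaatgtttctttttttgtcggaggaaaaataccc
Csta2: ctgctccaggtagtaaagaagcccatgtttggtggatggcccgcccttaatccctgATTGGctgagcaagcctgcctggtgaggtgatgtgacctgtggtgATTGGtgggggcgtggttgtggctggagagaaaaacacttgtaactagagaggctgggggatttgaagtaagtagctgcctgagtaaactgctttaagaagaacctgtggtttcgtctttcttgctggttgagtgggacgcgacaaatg

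All 3 windows hold the CCAAT letters on either strand, as do 33.8% of the 32851 promoter windows of the same length. Tm4sf4 holds them once, from base -96 to -92 before the start, and Mcub once, from -229 to -225. Csta2 holds them at 2 places, from -194 to -190 and from -149 to -145. Neither TATAAA, the core of the TATA box, nor ATGCAAAT, the octamer that POU factors bind, was found on either strand in these 3 windows. Of all windows, 12.4% hold TATAAA and 1.6% hold ATGCAAAT, and no motif lies within the letters of another. The share of G and C was 40.8% for Tm4sf4, 48.0% for Mcub and 51.6% for Csta2, against a median of 52.4% over all windows.

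Tm4sf4 had a level of 11861.6 in Dclk1+ and 456.2 in Dclk1- tumor cells, and 53902.5 in Dclk1+ and 2709.3 in Dclk1- normal cells. Dclk1+ normal was the highest array, Dclk1+ tumor came next, and both were above both Dclk1- arrays. The Dclk1+ normal spot read 32050 against a highest spot of 56969 on that array, so it was below the top of the scan.

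Inpp5j, which the array names Pib5pa, had a level of 2423.1 in Dclk1+ and 100.2 in Dclk1- tumor cells, and 11010.2 in Dclk1+ and 371.1 in Dclk1- normal cells. The order of the 4 arrays was that of Tm4sf4. Mcub, named 9030408N13Rik on the array, read 1911.4 in Dclk1+ and 109.8 in Dclk1- tumor cells, and 5598.6 in Dclk1+ and 11.2 in Dclk1- normal cells. Mcub is the only one of the 5 genes whose Dclk1- tumor array was above its Dclk1- normal array.

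Cst6 read 984.1 in Dclk1+ and 421.5 in Dclk1- tumor cells, and 12502.3 in Dclk1+ and 770.9 in Dclk1- normal cells. Dclk1+ normal stood apart, and the other 3 arrays lay within a narrower band in which Dclk1+ tumor was the highest. Csta2, named 2010005H15Rik on the array, read 147.6 in Dclk1+ and 14.7 in Dclk1- tumor cells, and 1730.5 in Dclk1+ and 64.1 in Dclk1- normal cells. With 1 array per group these levels have no replicate error, and their precision is limited by the number of arrays. RNA of sorted cells was pooled on each array, so fewer positive cells and less RNA per cell cannot be told apart.

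**Figure D1:**
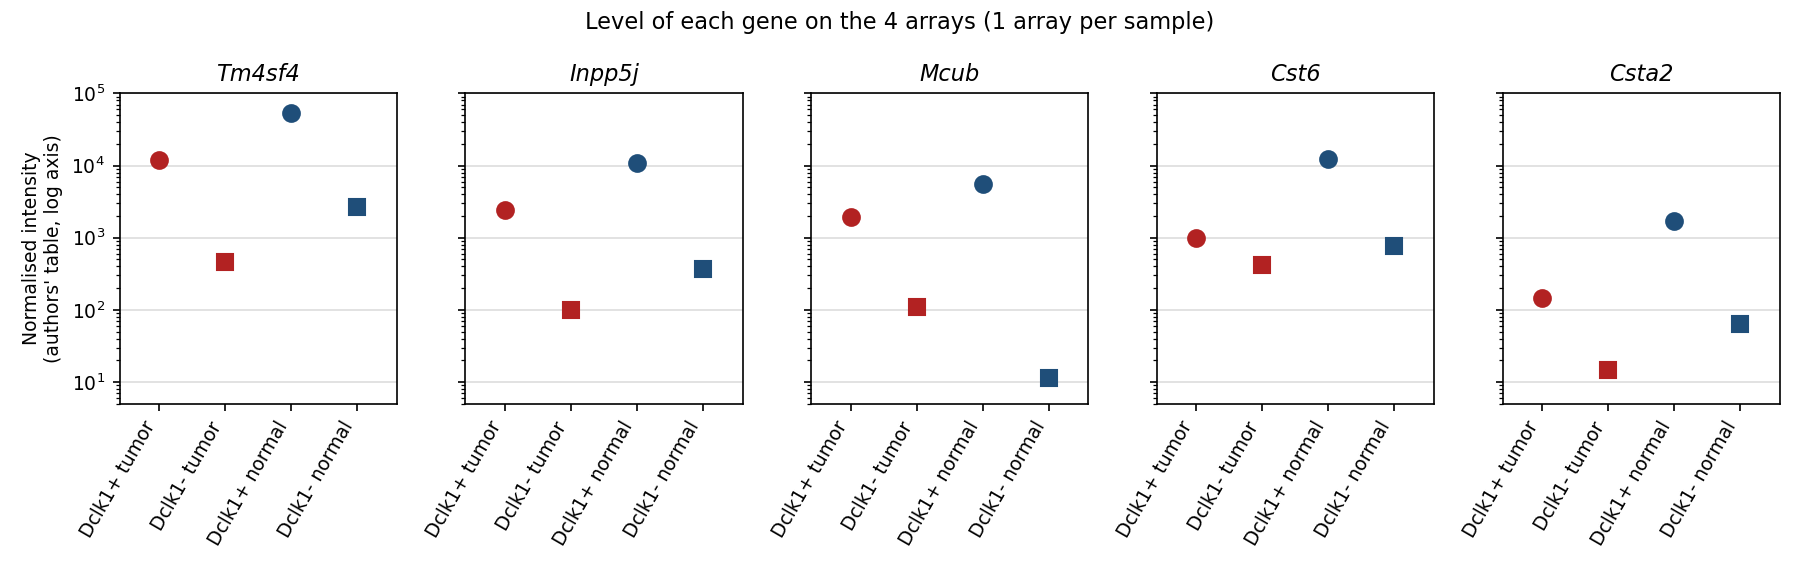
Normalised intensity (authors' deposited table, log axis) of the 5 genes on the 4 arrays, 1 point per array, with circles for Dclk1+ and squares for Dclk1- cells, red for tumor and blue for normal. Dclk1+ normal is the highest array for each gene, and Mcub alone has a higher level in Dclk1- tumor (109.8) than in Dclk1- normal (11.2).

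In tumor, Tm4sf4, Inpp5j and Mcub were at least 4-fold higher in Dclk1+ than in Dclk1- cells, and Cst6 and Csta2 were not. These differences are on the log2 scale after background correction and quantile normalization, over genes above background on either array. Tm4sf4 was higher by 4.23 and stood at place 7 from the highest of 12197 genes. Inpp5j was higher by 3.85 at place 9, and Mcub by 3.44 at place 14. Csta2 differed by 1.30 and Cst6 by 0.92, and Csta2 passed 4-fold with a smaller offset, in the authors' values and with either background subtracted. The offset compresses the dim Csta2 probe, which was 10.1-fold higher in Dclk1+ tumor cells on the authors' linear scale. On that scale Tm4sf4, Inpp5j and Mcub stood at places 42, 44 and 66 from the highest of 12684 genes. The count of 3 of 5 genes stands beside 0.426% of all genes at least 4-fold higher, and since the genes were picked on this signal nothing is read from it. The median was 3.44 over the 5 genes and 0.01 over all genes.

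In normal epithelium all 5 genes were at least 4-fold higher in Dclk1+ than in Dclk1- cells, beside 1.61% of all 12844 genes, a count that the choice of genes again fixes. Mcub had the widest gap, 5.75, at place 6 from the highest. Inpp5j followed with 4.32, Tm4sf4 with 3.89, Cst6 with 3.6 and Csta2 with 3.38. The median was 3.89 over the 5 genes and 0.01 over all genes. On the authors' linear scale, Mcub was 501-fold higher in Dclk1+ normal cells, a ratio that rests on a level of 11.2 in Dclk1- normal. Mcub stood at place 8 from the highest of 13389 genes on that scale. With several probes to a gene, the SD between probes was 0.39 for this contrast in tumor and 0.79 in normal. It is not a replicate error.

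The Dclk1- cells kept a different part of each gene's signal. In tumor, the Dclk1- level was 3.85% of the Dclk1+ level for Tm4sf4, 4.14% for Inpp5j, 5.74% for Mcub, 9.93% for Csta2 and 42.8% for Cst6. In normal epithelium it was 5.03% for Tm4sf4, 3.37% for Inpp5j, 0.2% for Mcub, 3.7% for Csta2 and 6.17% for Cst6. Tuft genes with a listed level on both arrays had a median share of 1.62% in tumor (14 genes) and 0.351% in normal epithelium (15 genes). Lrmp, a tuft cell membrane protein, was at 0.179% in tumor and 0.142% in normal epithelium, and Trpm5 at 0.632% and 0.576% in the same tissues. Dclk1 itself was at 15.4% in tumor and 24.4% in normal epithelium.

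**Figure D2:**
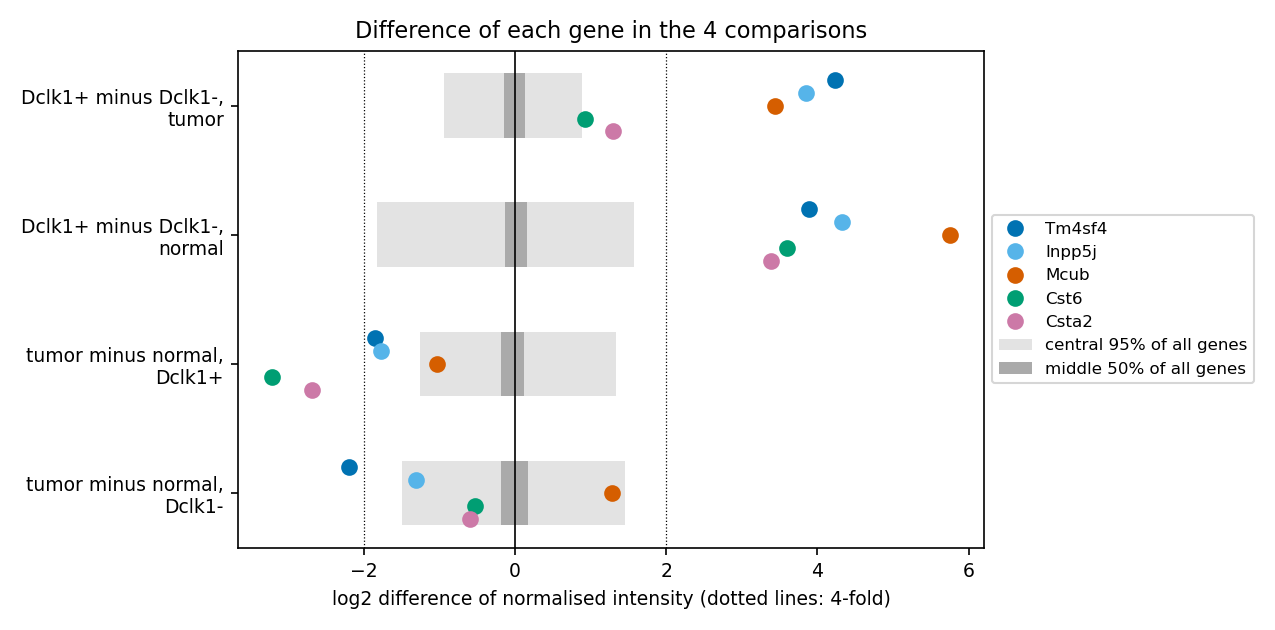
Log2 difference of the 5 genes (coloured points) in each of the 4 comparisons, with the middle 50% of all genes in dark grey and the central 95% in light grey; dotted lines mark 4-fold. All 5 genes lie to the right of the light bar for Dclk1+ minus Dclk1- cells, Cst6 in tumor by little (0.92 against an upper bound of 0.88).

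Tumor against normal Dclk1+ cells gave lower levels of all 5 genes. Cst6 differed by -3.21, at place 2 from the lowest of 12869 genes, and Csta2 by -2.68, at place 4. Tm4sf4 differed by -1.85, Inpp5j by -1.77 and Mcub by -1.03. The places depend on the scale: in the authors' values Cst6 stood at place 54 and Csta2 at place 65 from the lowest of 13417 genes. Cst6 and Csta2 were thus at least 4-fold lower, beside 0.427% of all genes, and all 5 were at least 2-fold lower, beside 4.2%. The genes were picked for a high Dclk1+ signal, which both arrays of this comparison carry, so these counts are a description. Markers of other epithelial cells moved in the same comparison: the summed level of 5 Paneth cell genes was 14540 in Dclk1+ tumor cells and 162.0 in Dclk1+ normal cells, and that of 7 goblet cell genes 22890 and 8040 in those samples. Agr2, a goblet cell disulfide isomerase, differed by 6.23, and Mmp7, a Paneth cell protease, by 6.60. In Dclk1+ tumor cells, Mmp7 alone gave 11241.5 of the Paneth sum and Agr2 alone 10403.6 of the goblet sum. The goblet genes Tff3 and Zg16 differed by 0.29 and 0.11, and both read lower in Dclk1+ tumor cells on the linear scale. The median difference was 3.63 over the Paneth list, 0.57 over the goblet list, -0.13 over the enterocyte list and -0.23 over the enteroendocrine list. Which cells gave the Paneth and goblet levels was not tested, nor was the part of those cells in the lower levels of the 5 genes.

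On the linear scale, the Dclk1+ tumor level was 22.0% of the Dclk1+ normal level for both Tm4sf4 and Inpp5j, 34.1% for Mcub, 8.53% for Csta2 and 7.87% for Cst6. The tuft list had a median of 25.8% over 17 genes, from 5.94% for Il17rb, the receptor of Il25, to 161.0% for Gng13, a G protein subunit. Dclk1 was at 8.4%. The authors' values are not level between arrays: over all genes their median log2 difference was -0.37 for this comparison. In the quantile normalised values the tuft list had a median of -1.45 over 18 genes, and the 5 genes a median of -1.85.

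In Dclk1- cells, tumor against normal gave differences of both signs. Tm4sf4 differed by -2.19 and Inpp5j by -1.31, while Csta2 (-0.60) and Cst6 (-0.53) lay within 2-fold. That call depended on the background: Csta2 was at -1.04 with an offset of 16, at -1.82 with the blank mean subtracted, at -2.13 in the authors' values and at -2.46 with local background subtracted. Mcub was higher in tumor by 1.28. Of the 5 genes 1 was at least 4-fold lower, beside 1.3% of all genes, 2 were at least 2-fold lower, beside 5.27%, and 1 was at least 2-fold higher, beside 5.84%. Avil, an actin-binding protein of tuft cells, and Ptgs1, a cyclooxygenase, had the same sign as Mcub, with 1.31 and 1.67 in Dclk1- cells. They are the 2 of 15 measured tuft genes at least 2-fold higher there; 1 was at least 2-fold lower, Dclk1 (-1.65), and the list had a median of 0.03.

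The gap between Dclk1+ and Dclk1- cells was of like size in both tissues for 2 of the genes. The tumor gap minus the normal gap was 0.35 for Tm4sf4 and -0.46 for Inpp5j, at places 11538 and 1756 from the lowest of 13465 genes. Under 6 alternatives it lay between 0.14 and 0.48 for Tm4sf4 and between -0.77 and -0.04 for Inpp5j. The SD between probes was 0.39 for the tumor gap and 0.79 for the normal gap, and none was computed for their difference. The tumor gap minus the normal gap was -2.68 for Cst6 at place 24, -2.31 for Mcub at place 47 and -2.08 for Csta2 at place 71. With local background subtracted it was -0.86 for Cst6, at place 3345. For Csta2 it was -1.35 with the blank mean subtracted, at place 1661. For Mcub it lay between -4.85 and -2.75 under 6 alternatives. The parts of this change differ. For Cst6 and Csta2 the Dclk1+ arrays moved most between tissues, by -3.21 and -2.68. For Mcub the Dclk1- arrays moved by 1.28 and the Dclk1+ arrays by -1.03, but these parts depended on the background. In the same order they were 2.08 and -1.05 with an offset of 16, and 3.56 and -1.06 with the blank mean subtracted. They were 3.29 and -1.55 in the authors' values, 4.27 and -0.34 with local background subtracted, and 1.41 and -1.36 with median scaling.

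**Figure D3:**
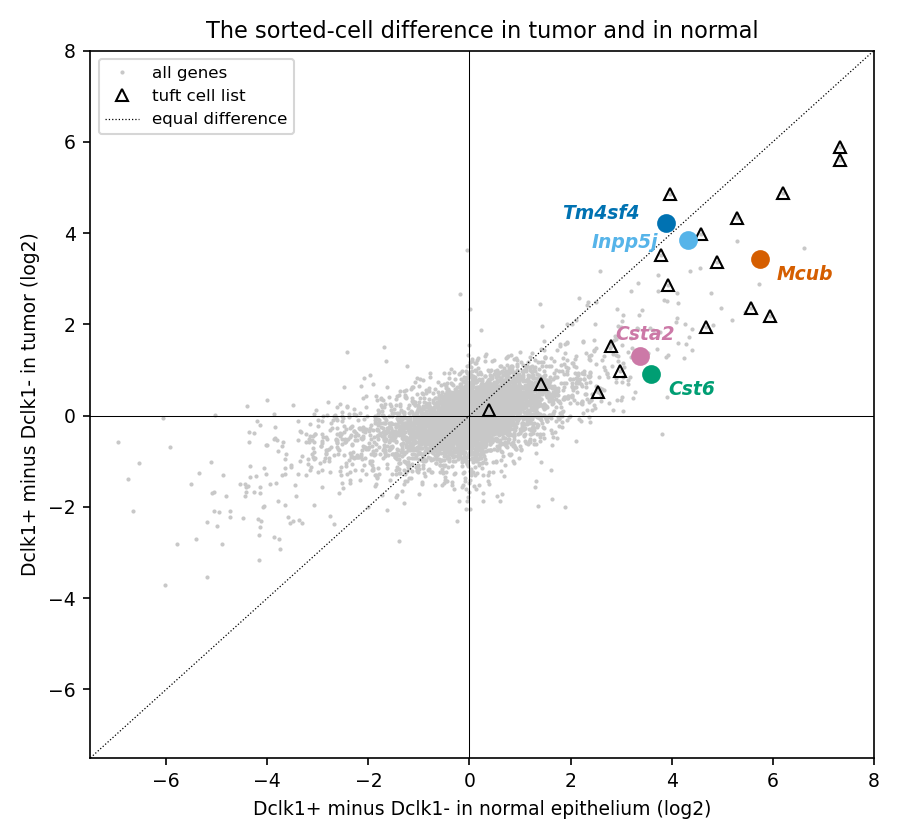
Log2 difference of Dclk1+ minus Dclk1- cells in tumor (vertical axis) against normal epithelium (horizontal axis), 1 point per gene, with the 5 genes coloured and the tuft list as open triangles. Tm4sf4 (4.23 and 3.89) and Inpp5j (3.85 and 4.32) lie close to the dotted line of equal difference, and Mcub, Cst6 and Csta2 lie below it.

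Local background was close to the spot for Cst6 and Csta2 in tumor. The local background was 82.5% of the Cst6 spot in Dclk1+ tumor and 96.2% in Dclk1- tumor, against 29.7% in Dclk1+ normal and 38.7% in Dclk1- normal. For Csta2 it was 81.2% in Dclk1+ tumor and 83.2% in Dclk1- tumor, against 40.2% in Dclk1+ normal and 46.4% in Dclk1- normal. With it subtracted, the Dclk1+ minus Dclk1- difference in tumor was 2.91 for Cst6 and 2.27 for Csta2, both past 4-fold. Tumor minus normal in Dclk1- cells was then -3.91 for Cst6. For Mcub the local background was 79.7% of the spot in Dclk1- normal cells, and with it subtracted tumor minus normal was 4.27 in Dclk1- cells and -0.34 in Dclk1+ cells. The local background followed the spot itself on each array (correlation of logs between 0.921 and 0.979 across spots).

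Profiles were compared by the root mean square log2 difference over the 4 arrays, after each gene was centred on its own mean. Tm4sf4 and Inpp5j were 0.31 apart, and 0 of 13460 other genes were closer to either. Their nearest other gene was Bcl2l14, of the Bcl2 family, at 0.43 from Tm4sf4 and 0.40 from Inpp5j. Hepacam2 and Nrgn came next for Tm4sf4, and Gfi1b and Fam221a for Inpp5j. Cst6 and Csta2 were 0.19 apart with 0 other genes closer, but with the blank mean subtracted and no offset 249 genes were closer to Cst6 and 41 to Csta2. Clec4a1, Rgs2 and Siae were the nearest other genes to Cst6, and Siae, Clec4a1 and Ethe1 to Csta2. Mcub was nearest to Fyb at 0.41, Camkk2 and Plcb2. These distances rest on 4 arrays and describe them only.

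Among the relatives of Tm4sf4, 2 had their highest level in Dclk1- cells. Tm4sf5 read 644.2 in Dclk1+ and 880.7 in Dclk1- tumor cells, and 1431.7 in Dclk1+ and 4613.2 in Dclk1- normal cells. Tm4sf20 read 2136.4 in Dclk1+ and 4200.9 in Dclk1- tumor cells, and 518.0 in Dclk1+ and 3541.5 in Dclk1- normal cells. In normal epithelium, 2 of the 3 measured relatives had a Dclk1+ level lower by 4-fold or more, Tm4sf5 (-2.07) and Tm4sf20 (-2.91), beside 2.16% of all genes. Tm4sf1, the gene next to Tm4sf4 on chromosome 3, was dim and read 32.5 in Dclk1+ and 22.8 in Dclk1- tumor cells, and 41.1 in Dclk1+ and 8.5 in Dclk1- normal cells. Both Dclk1+ arrays were above both Dclk1- arrays, and the log2 difference after the offset was 0.08 in tumor and 0.47 in normal epithelium. Of the tetraspanins proper, 0 of 18 were 2-fold or more higher in Dclk1+ normal cells, beside 5.66% of all genes, a count near the background. Lower by as much were 5 of them, beside 5.92% of all genes, led by Cd81 (-3.20) and Tspan3 (-2.37).

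Among the other 5-phosphatases, 0 of 7 in tumor and 2 of 9 in normal epithelium were at least 2-fold higher in Dclk1+ cells, beside 1.77% and 5.66% of all genes. Inpp5d, a phosphatase of blood cells, read 57.9 in Dclk1+ and 7.2 in Dclk1- tumor cells, and 304.6 in Dclk1+ and 3.7 in Dclk1- normal cells, a difference of 2.20 in normal epithelium. Inpp5b differed by 1.29 there. Of 24 other phosphoinositide enzymes, 2 were at least 4-fold higher in Dclk1+ tumor cells, beside 0.426% of all genes, and 3 in Dclk1+ normal cells, beside 1.61%. Plcb2, a phospholipase C of taste signalling, differed by 3.98 in tumor and 4.58 in normal epithelium, and Plcg2, another phospholipase C, by 2.73 and 3.73. Pik3cg, a lipid kinase, was at least 5.79-fold higher in Dclk1+ normal cells, since its probe was not above background in Dclk1- normal.

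Of 6 other genes of mitochondrial calcium transport, which are parts of the uniporter and ion carriers or exchangers such as Slc8b1 and Letm1, 0 were at least 2-fold apart between Dclk1+ and Dclk1- cells on the log2 scale in either tissue. Among all genes, 1.77% were higher and 2.14% lower by 2-fold in tumor, and 5.66% were higher and 5.92% lower in normal epithelium, so a count of 0 of 6 is near the background. Letm1 is dim, and on the linear scale it read 57.9 in Dclk1+ and 20.7 in Dclk1- tumor cells. Smdt1, the small subunit that links the pore to its gatekeepers, read 2161.1 in Dclk1+ and 1664.6 in Dclk1- tumor cells, and 6591.1 in Dclk1+ and 4013.5 in Dclk1- normal cells. Its difference between Dclk1+ and Dclk1- cells was 0.11 in tumor and 0.26 in normal epithelium. Micu2, a gatekeeper, differed by -0.42 and -0.17. The probe of Mcu, the pore subunit itself, was not above background on any of the 4 arrays, so the level of Mcub cannot be set beside it.

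Of the other cystatins and stefins, 1 of 8 was higher in Dclk1+ cells by 2-fold or more in each tissue, beside 1.77% of all genes in tumor and 5.66% in normal epithelium. That gene was Stfa1, a stefin that follows Csta2 on chromosome 16, with 148.6 in Dclk1+ tumor and 196.7 in Dclk1+ normal, and no spot above background in either Dclk1- array. Its Dclk1+ level was higher by at least 2.95-fold in tumor and at least 3.42-fold in normal epithelium. Probes of close stefins can bind more than 1 member's RNA, so Csta2 and Stfa1 may share signal. Their tumor against normal differences in Dclk1+ cells were unequal, -2.68 for Csta2 and -0.19 for Stfa1. Cstb differed by -0.30 in tumor and 0.59 in normal epithelium, and Cst3 by 0.34 and -0.03.

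Cystatins act on cysteine proteases, which make up the list of cathepsins and legumain but for Ctsa, a serine protease. In tumor, 2 of 11 genes of that list were lower in Dclk1+ cells by 2-fold or more, beside 2.14% of all genes, and 0 were higher, beside 1.77%. In normal epithelium 1 of 10 was lower, beside 5.92%, and 0 were higher, beside 5.66%. Lgmn, the legumain that Cst6 inhibits, read 77.6 in Dclk1+ and 224.4 in Dclk1- tumor cells, and 16.2 in Dclk1+ and 54.4 in Dclk1- normal cells. Ctsl, a lysosomal protease that human CST6 also inhibits, read 5881.2 in Dclk1+ and 7841.5 in Dclk1- tumor cells, and 636.8 in Dclk1+ and 550.8 in Dclk1- normal cells. Tumor minus normal for Ctsl was 3.27 in Dclk1+ cells, where Cst6 had -3.21, and 3.92 in Dclk1- cells, where Cst6 had -0.53. In Dclk1+ cells Ctsb differed by 0.04 between the tissues and Ctsh by 1.18.

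**Figure D4:**
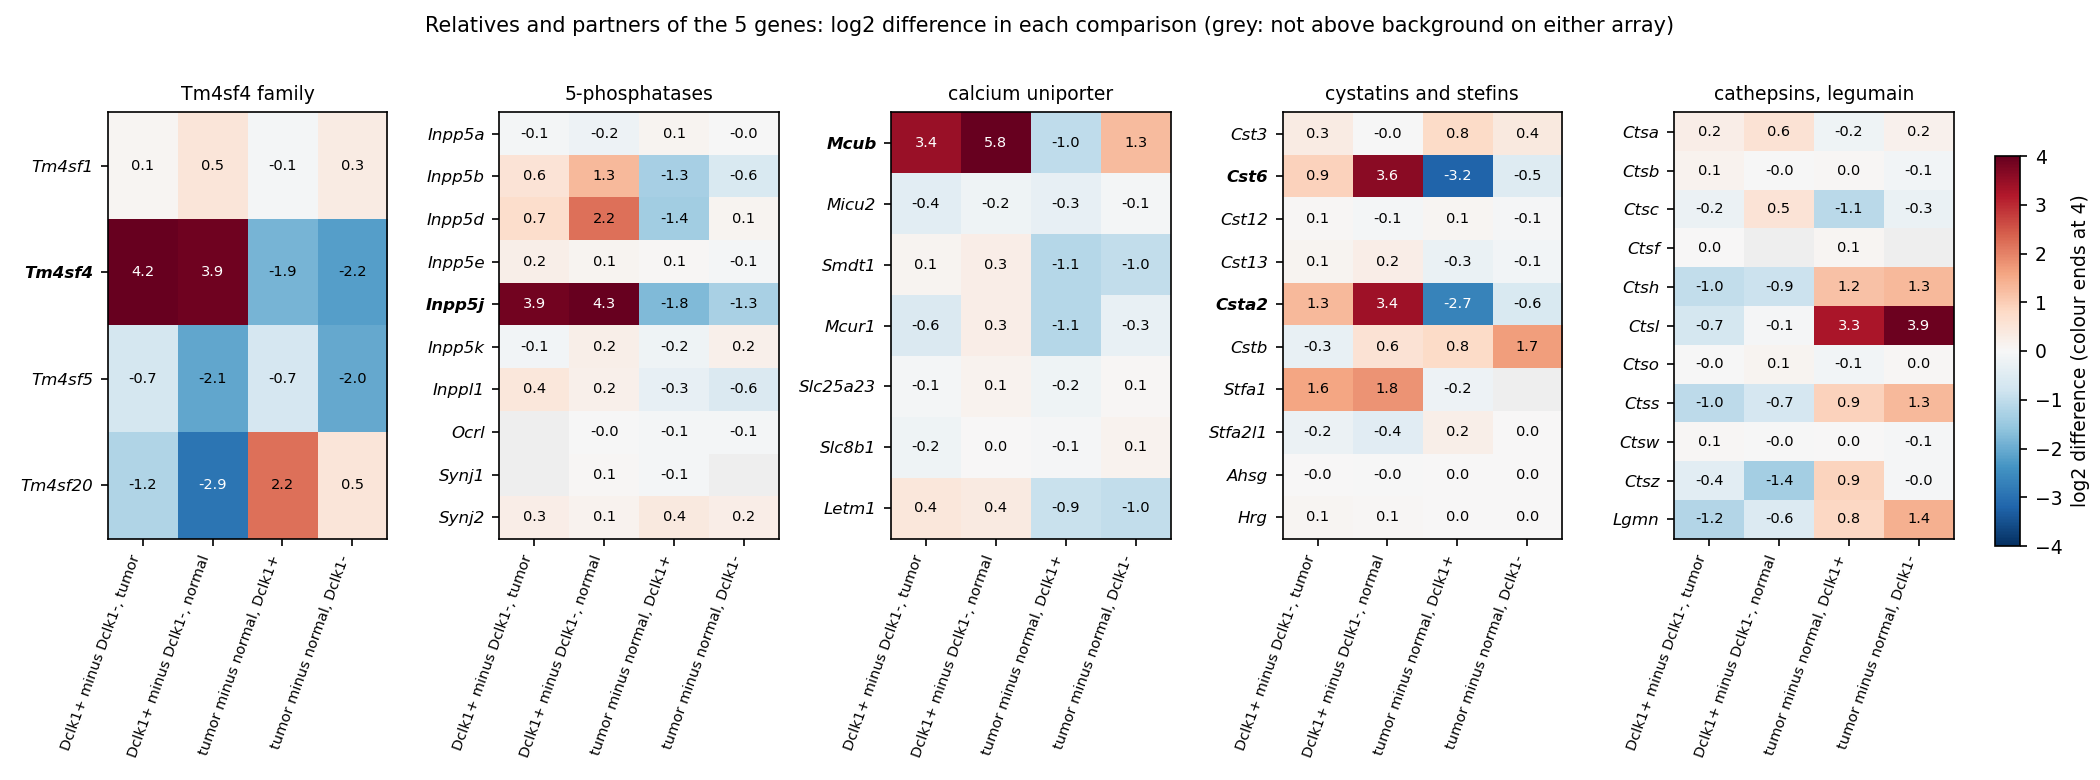
Log2 difference in the 4 comparisons (columns) for relatives and partners of the 5 genes that were above background on at least 1 array, with the 5 genes in bold, red for higher and blue for lower in the first-named sample, and grey where neither array was above background. The 5 genes are the reddest cells of their families for Dclk1+ minus Dclk1- in normal epithelium, and Ctsl is the reddest cell for tumor minus normal.

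Markers of other cells were present in the sorts. The summed level of 11 macrophage genes was 1561 in Dclk1+ and 3162 in Dclk1- tumor cells, and 2131 in Dclk1+ and 675.9 in Dclk1- normal cells, with between 7 and 9 of them above background on an array. C1qb, a complement gene of macrophages, read 777.8 in Dclk1+ and 1812.5 in Dclk1- tumor cells, and 877.2 in Dclk1+ and 230.0 in Dclk1- normal cells. The macrophage sum was thus higher in Dclk1+ than in Dclk1- cells in normal epithelium and lower in tumor. C1qb and Aif1 (829.5) made up most of the Dclk1+ normal sum. Of 7 measured macrophage genes, 2 were at least 2-fold higher in Dclk1+ normal cells, beside 5.66% of all genes. The macrophage list had a median log2 difference of 0.32 in normal epithelium and -0.24 in tumor. The summed level of 14 neutrophil genes was 1797 in Dclk1+ and 3114 in Dclk1- tumor cells, and 568.3 in Dclk1+ and 177.6 in Dclk1- normal cells. Between 6 and 8 of them were above background on an array. The neutrophil list had a median log2 difference of 0.13 in normal epithelium and -0.50 in tumor. Lcn2, a neutrophil granule gene that epithelium also makes, read 973.7 in Dclk1+ and 1630.0 in Dclk1- tumor cells, and 18.6 in Dclk1+ and 25.9 in Dclk1- normal cells. It thus made up most of both neutrophil sums in tumor. The goblet sum in Dclk1- cells was 43470 in tumor and 181200 in normal epithelium, and the Paneth sum 21340 and 4707. Enterocyte genes (10) summed to 18590 in Dclk1+ and 22240 in Dclk1- tumor cells, and 67380 in Dclk1+ and 77930 in Dclk1- normal cells. Fabp1 alone gave 16025.9 of the Dclk1+ tumor sum and 63956.2 of the Dclk1+ normal sum. The enterocyte list had a median log2 difference between Dclk1+ and Dclk1- cells of -1.66 in tumor and -3.79 in normal epithelium. Enteroendocrine genes (13) summed to 1313 in Dclk1+ and 760.2 in Dclk1- tumor cells, and 6685 in Dclk1+ and 38730 in Dclk1- normal cells. Sct alone gave 908.3 of the Dclk1+ tumor sum and 6275.0 of the Dclk1+ normal sum. The enteroendocrine list had a median log2 difference between Dclk1+ and Dclk1- cells of -0.30 in tumor and -2.49 in normal epithelium. The sums of mast cell and basophil genes, of lymphocyte genes and of fibroblast and endothelial genes were between 34.37 and 439.4 on the 4 arrays. Squamous epithelium, where Cst6 and stefins are well known, gave sums of 244.2 in Dclk1+ and 168.6 in Dclk1- tumor cells, and 263.6 in Dclk1+ and 420.0 in Dclk1- normal cells over 15 genes. The part of these cells in the levels of the 5 genes was not tested.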

How the data were processed

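Spot brightness was read on 4 arrays. Per the file headers, the deposited scanner files hold median intensities at 635 nm for every spot and for the background around it, joined from 3 gains by straight-line fits. The authors' deposited value table also holds intensities: set against the scanner values, each column is linear in the scanner reading, less about the mean of the blank spots, with the median listed probe near 25 (24.99 to 25.01), and dim probes are empty. Its scale and centring are not stated in the labels, and a brighter spot has a higher value. These are the normalised intensities quoted as levels.

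Differences came from the scanner intensities: normexp with an offset of 50 on all spots in limma 3.58.1 (R 4.3.3), without local background subtraction, control spots dropped, 4 flagged spots left out, quantile normalization, log2. The offset compresses differences of dim genes. Of the probes, 16631 have 1 symbol and 6842 have none here. Names were updated through RefSeq GRCm38.p6 (3947 synonyms of 1 gene), and of several probes the one with the highest mean was used. Coordinates are RefSeq's. A gene was called at least 4-fold (or 2-fold) apart if above background on 1 of the 2 arrays. "At least" folds are against the dimmest signal above background. Each group has 1 array, so no test was run and no p-value is given. The processing was checked on simulated data.

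The 5 genes, the gene lists and the comparisons were chosen with earlier results of these data known. Named genes are the 5, relatives and partners at least 2-fold apart in a comparison or acting on a member, Dclk1, Trpm5, Lrmp, genes among the 2 brightest of another marker list (not all are printed), and the 3 nearest profiles. Il17rb, Gng13, Avil, Ptgs1, Agr2, Letm1, Slc8b1, Ctsa, Cst3, Tm4sf1 and Pyy were named after their values were seen. Alternatives were another offset, background, scaling, filter, fold and value source.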

Additional observations from a re-analysis of the deposited data

Results flagged for a closer look

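Mcub moved in opposite directions between tissues in the 2 kinds of sorted cell: tumor minus normal was -1.03 in Dclk1+ cells and 1.28 in Dclk1- cells (log2). Of the marker lists, Avil (-1.42 in Dclk1+ cells and 1.31 in Dclk1- cells) and Ptgs1 (-2.09 in Dclk1+ cells and 1.67 in Dclk1- cells) did the same, and the enteroendocrine hormone gene Pyy moved the other way (-2.82 in Dclk1- cells, and at least 4.47-fold higher in Dclk1+ tumor cells, where the value of 2.22 is taken against a probe not above background in Dclk1+ normal). Between Dclk1+ and Dclk1- cells, Il1b differed by -1.83 in tumor and 1.63 in normal epithelium, and C1qb by -1.43 in tumor and 1.32 in normal epithelium. These genes drew attention because 1 array of each pair moved each way by at least 2-fold, and with 1 array in each group the differences were not tested. With local background subtracted, Mcub was at -0.34 in Dclk1+ cells, within 2-fold. In Dclk1- normal cells the Mcub spot read 30.6 and the Avil spot 25.7, close to the background limit of 23.7.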

How the results depend on the processing

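Over the 20 differences of the 5 genes and the 6 alternatives that can move them, 0 of 120 values changed sign, 90 moved by less than the SD between probes and 30 by more; the filters on dim probes cannot move a gene's own difference. Tm4sf4 and Inpp5j were past 4-fold between Dclk1+ and Dclk1- cells under each alternative run (3.99 to 4.70 and 3.47 to 4.60 in tumor). The difference in tumor ranged from 0.61 to 2.91 for Cst6 and from 1.19 to 3.33 for Csta2, and tumor minus normal in Dclk1- cells from 1.28 to 4.27 for Mcub. The number of the 5 genes at least 4-fold apart in tumor was 5 with local background subtracted and 4 with an offset of 16, the blank mean subtracted or the authors' values, since Csta2 was then at 2.00, 3.03 and 3.33. For tumor against normal in Dclk1+ cells it was 3 with median scaling, 4 with 75th percentile scaling or the authors' values, and 5 at 2-fold. In Dclk1- cells it was 2 with an offset of 16 or the blank mean subtracted, 4 with local background subtracted, and 3 with the authors' values or at 2-fold. Counts of all genes at least 4-fold apart (88 in tumor and 484 in normal epithelium between the sorted cells, and 205 in Dclk1+ and 307 in Dclk1- cells between the tissues) became, in that order, 160, 755, 378 and 535 with an offset of 16, 901, 1748, 1367 and 1553 with the blank mean subtracted, 1166, 1334, 1312 and 1721 with local background subtracted, 947, 1879, 1624 and 1769 with the authors' values, and 477, 1488, 1090 and 1371 at 2-fold. The cause was not tested. The median of all genes moved by more than 0.1 with the authors' values (0.32, 0.24, -0.37 and -0.45 in the same order) and, between sorted cells, with 75th percentile scaling (0.13 and 0.14). The share of called genes that were higher was 73.2% for tumor against normal in Dclk1+ cells, 61.6% with median scaling, 58.6% with 75th percentile scaling and 47.2% with the authors' values; in tumor it was 59.1% for Dclk1+ against Dclk1-, and 44.3% with median scaling. The closeness of Tm4sf4 and Inpp5j (0.25 to 0.33 under the 6 alternatives, 0 other genes closer), a check chosen, like that of the tumor gap minus the normal gap, after seeing the data, was kept under each, and that of Cst6 and Csta2 was not (0.24 to 0.84). Averaging probes was not run because each of the 5 genes has 1 probe. No paired analysis was possible because each group has 1 array.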
